A study of Mus musculus with 16 samples.

Results

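The 9 genes described here are Fcgr1, Fcgr2b, Fcgr3, Fcgr4, Fcer1g, Tyrobp, Trem2, Lat2 and Syk. They encode Fc receptors for immunoglobulin G, a further myeloid receptor (Trem2), adaptors of activating receptors, a scaffold (Lat2) and the kinase that the adaptors recruit. The genes were chosen by name with earlier results of these data known, so shares over all genes given beside them are no independent test. All 9 were measured among 19938 genes. Each gene had 1 probe set naming it alone (Fcgr1 10500335, Fcgr2b 10360028, Fcgr3 10360040, Fcgr4 10351509, Fcer1g 10360070, Tyrobp 10551883, Trem2 10445781, Lat2 10534303 and Syk 10405216). Footpad RNA was hybridized to 16 Affymetrix Mouse Gene 1.0 ST arrays in 4 groups of 4: AIRmax pristane, AIRmax control, AIRmin pristane and AIRmin control. AIRmax and AIRmin are outbred lines bred by bidirectional selection for high and low acute inflammation from a shared intercross of the C57BL/6J, BALB/cJ, A/J, CBA/J, DBA/2J, P/J, SJL/J and SWR/J strains, so that mice of 1 line need not share a genotype. By the labels all mice were 2 to 4 months old, which, with the injection times below, cannot be the age of pristane mice at collection. Every group held 2 males and 2 females. Pristane, a mineral oil that induces arthritis, was injected intraperitoneally, 0.5 ml on 2 occasions 60 days apart. Pristane footpads were taken at day 160 and control footpads at day 0, counted from the second injection. Pristane, time and age therefore cannot be told apart within a line. The sources used here do not say whether control mice had received the oil. The arrays bear consecutive numbers, 109 to 112 in AIRmax pristane, 105 to 108 in AIRmax control, 117 to 120 in AIRmin pristane and 113 to 116 in AIRmin control, and group and array order cannot be told apart either. The methods call the 4 arrays of a group biological replicates without saying that each came from 1 mouse, and p-values measure the spread between these arrays.

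Fc gamma receptors bind the constant part of IgG and so let myeloid cells react to antibody-coated particles and immune complexes. In mice Fcgr1, Fcgr3 and Fcgr4 encode activating receptors that need the common gamma chain, the product of Fcer1g, for expression and signalling, whereas Fcgr2b encodes the inhibitory receptor that opposes them. Tyrobp (DAP12) is a like adaptor that pairs with other receptors, Trem2 among them. Both adaptors carry an immunoreceptor tyrosine-based activation motif (ITAM), to which Syk binds once the motif is phosphorylated, and Lat2 (NTAL) is a membrane scaffold downstream of such kinases. Activating and inhibitory Fc receptors together set the response of macrophages, neutrophils and mast cells to immune complexes in antibody-driven arthritis models.

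Fcgr2b, Fcgr4, Fcgr3 and Fcer1g all lie on chromosome 1, with Fcgr1 on chromosome 3, Lat2 on 5, Tyrobp on 7, Syk on 13 and Trem2 on 17. Promoters of 7 of the 9 genes were matched by symbol in the RefSeq table (GRCm38.p6). Tyrobp and Lat2 were not listed. The 250 bases before the start of the genes with the firmest or widest differences are printed 5′ to 3′ on the gene's own strand. Capitals mark GAGGAA on either strand (TTCCTC on the other), a core bound by ETS factors such as the myeloid factor PU.1, and TTCNNNGAA, a palindromic core bound by STAT factors.
Fcgr1: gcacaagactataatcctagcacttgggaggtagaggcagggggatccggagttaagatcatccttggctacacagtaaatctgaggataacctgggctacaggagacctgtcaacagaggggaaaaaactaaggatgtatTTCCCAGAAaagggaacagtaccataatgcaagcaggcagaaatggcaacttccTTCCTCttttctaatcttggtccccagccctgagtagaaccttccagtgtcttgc
Fcgr2b: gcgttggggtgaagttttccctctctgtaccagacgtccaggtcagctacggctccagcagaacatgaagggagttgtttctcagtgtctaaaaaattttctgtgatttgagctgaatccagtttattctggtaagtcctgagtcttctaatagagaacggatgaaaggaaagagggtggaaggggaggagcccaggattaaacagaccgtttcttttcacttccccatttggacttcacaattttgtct
Fcgr4: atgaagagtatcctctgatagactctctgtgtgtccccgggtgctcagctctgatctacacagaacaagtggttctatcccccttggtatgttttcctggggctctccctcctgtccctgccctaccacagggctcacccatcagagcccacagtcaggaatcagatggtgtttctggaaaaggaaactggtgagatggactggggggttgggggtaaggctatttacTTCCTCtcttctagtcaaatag
Trem2: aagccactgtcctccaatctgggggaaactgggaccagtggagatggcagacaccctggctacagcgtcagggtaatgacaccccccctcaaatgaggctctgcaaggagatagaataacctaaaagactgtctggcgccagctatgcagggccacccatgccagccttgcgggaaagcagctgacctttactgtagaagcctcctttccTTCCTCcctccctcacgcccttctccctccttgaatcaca
The windows are chr3:96293970-96294219 (minus strand) for Fcgr1, chr1:170976072-170976321 (minus) for Fcgr2b, chr1:171018676-171018925 (plus) for Fcgr4 and chr17:48346151-48346400 (plus) for Trem2. GAGGAA stood at positions -55 to -50 in Fcgr1, -22 to -17 in Fcgr4 and -40 to -35 in Trem2, counted from the base before the start as -1, and no match was present in the Fcgr2b window. Fcgr1 alone of the 7 genes also held TTCNNNGAA, at -109 to -101, and this site does not overlap its GAGGAA. Fcgr3 held GAGGAA at -6 to -1 before the first of its 2 listed starts. The window of its second start overlaps the first, and the match there, at -15 to -10, is the same bases. Syk held GAGGAA before 1 of 2 starts, and the Fcer1g window held neither motif. Of all 32851 promoter windows of this length, 23.3% held GAGGAA and 7.02% held TTCNNNGAA. A match is a description of these letters and not a measured site.

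All 9 genes had their highest group mean in AIRmax pristane footpads. For 8 of them the AIRmax control mean came second, while Trem2 had its lowest mean in AIRmax control footpads. In a comparison of the lines after pristane, 3 of the 9 genes, Fcgr1, Fcgr2b and Lat2, were higher in AIRmax at a Benjamini-Hochberg adjusted p under 0.05 from limma, where 0.853% of all genes were called higher. For 5 of the 9 genes, which are these 3 with Fcer1g and Trem2, every AIRmax array lay above every AIRmin array, where 5.04% of all genes were higher without overlap. The median log2 difference of the 9 genes was 1.29, against -0.01 over all genes. Since these are whole-tissue values, fewer cells of a type and less RNA per cell cannot be told apart.

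Fcgr1 encodes the high-affinity IgG receptor of monocytes and macrophages. Its log2 signals were 7.14, 7.76, 7.52 and 7.90 in AIRmax pristane, 6.58, 6.55, 6.75 and 7.14 in AIRmax control, 5.98, 6.57, 6.11 and 6.56 in AIRmin pristane, and 6.28, 6.69, 6.32 and 6.57 in AIRmin control footpads. Every AIRmax pristane array lay above every AIRmin array, and the lowest of them only equalled the highest AIRmax control array at this rounding. Pristane footpads averaged 7.58 ± 0.33 in AIRmax and 6.30 ± 0.31 in AIRmin (SD, n = 4 each). The difference was 1.27 on the log2 scale (2.42-fold, 95% interval 0.83 to 1.72, adjusted p = 0.0273 from limma).

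Fcgr2b, the inhibitory receptor, stood at 9.07, 8.91, 8.49 and 9.01 in AIRmax pristane, 7.76, 8.18, 8.37 and 8.83 in AIRmax control, 7.20, 7.88, 7.27 and 7.92 in AIRmin pristane, and 7.61, 8.05, 8.32 and 8.07 in AIRmin control footpads. The inhibitory receptor gene was highest in the same footpads as the activating receptor gene Fcgr1, and all 4 AIRmax pristane arrays were above all 8 AIRmin arrays. After pristane it averaged 8.87 ± 0.26 in AIRmax and 7.57 ± 0.38 in AIRmin, a log2 difference of 1.30 (2.47-fold, 95% interval 0.84 to 1.76, adjusted p = 0.0273). The extracellular parts of Fcgr2b and Fcgr3 are closely alike in mice, and how far the probes of either also read the other was not tested. Fcgr3 differed by 0.60 between the same groups (95% interval -0.02 to 1.21, adjusted p = 0.278).

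Fcgr4, an activating receptor of monocytes, macrophages and neutrophils, had the widest spread of the 9 genes. Its signals were 8.0, 6.40, 8.91 and 8.97 in AIRmax pristane, 6.24, 5.84, 6.54 and 8.19 in AIRmax control, 4.71, 6.64, 4.32 and 5.98 in AIRmin pristane, and 4.91, 5.36, 5.02 and 5.89 in AIRmin control footpads. A single AIRmax pristane array, 110, fell among the AIRmin arrays. Array 110 and the next lowest of its group, 109, were the 2 males. The difference between pristane footpads was 2.66 (6.31-fold, 95% interval 1.18 to 4.13), which ranked 13 of 19938 genes by size but did not pass (adjusted p = 0.0815). Without array 110 it was 3.21 and passed (adjusted p = 0.0314). The lowest AIRmin signals of Fcgr4 came close to those of Xist in males (3.45 to 4.32), a transcript absent there, and are not shown to exceed background.

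Fcgr3, the low-affinity activating receptor, ranged from 6.91 to 7.72 in AIRmax pristane, 6.41 to 7.59 in AIRmax control, 6.13 to 7.35 in AIRmin pristane and 6.77 to 6.94 in AIRmin control footpads. These ranges overlapped throughout, and Fcgr3 passed in no comparison.

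Fcer1g, the gamma chain itself, had signals of 10.42, 9.63, 9.83 and 10.44 in AIRmax pristane, 9.40, 9.34, 9.41 and 10.40 in AIRmax control, 8.34, 9.37, 7.80 and 9.16 in AIRmin pristane, and 8.57, 9.08, 8.86 and 9.22 in AIRmin control footpads. In each treatment all AIRmax arrays lay above all AIRmin arrays. The line difference was 1.41 in pristane footpads (95% interval 0.63 to 2.19, adjusted p = 0.0808) and 0.71 in control footpads (95% interval 0.16 to 1.25, adjusted p = 0.227), and neither passed.
Tyrobp, the second ITAM adaptor, gave 10.09, 9.17, 9.02 and 10.16 in AIRmax pristane, 8.95, 8.87, 8.87 and 10.10 in AIRmax control, 7.64, 9.30, 7.61 and 8.73 in AIRmin pristane, and 8.28, 8.81, 8.30 and 8.93 in AIRmin control footpads. Array 118 of the AIRmin pristane group, at 9.30, lay among the AIRmax arrays, and array 108 of the AIRmax control group lay with the 2 highest AIRmax pristane arrays. The line difference in pristane footpads was 1.29 (95% interval 0.34 to 2.24, adjusted p = 0.149). Syk, the kinase, had ranges of 7.40 to 8.63 in AIRmax pristane, 7.43 to 8.54 in AIRmax control, 6.44 to 7.49 in AIRmin pristane and 6.66 to 7.57 in AIRmin control footpads. Its line difference was 1.09 in pristane footpads (adjusted p = 0.111) and 0.76 in control footpads (adjusted p = 0.236).

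Lat2, the scaffold, had signals of 7.73, 7.29, 8.31 and 8.27 in AIRmax pristane, 6.91, 6.80, 7.13 and 7.36 in AIRmax control, 6.33, 6.74, 6.41 and 6.65 in AIRmin pristane, and 6.59, 6.85, 6.90 and 6.97 in AIRmin control footpads. AIRmax pristane footpads were above both AIRmin groups on every array, and array 110 alone fell below the highest AIRmax control array. The mean was 7.90 ± 0.49 with pristane in AIRmax and 6.53 ± 0.20 with pristane in AIRmin, a difference of 1.37 (2.58-fold, 95% interval 0.86 to 1.88, adjusted p = 0.0317). The 3 called genes kept their direction without any single array, but Fcgr1 did not pass without array 111, 112, 117, 119 or 120 (adjusted p of 0.0618, 0.0739, 0.0931, 0.0705 and 0.0633), nor Lat2 without the same arrays (0.0665, 0.0819, 0.119, 0.0814 and 0.0769). Fcgr2b did not pass without 109, 112, 117, 119 or 120 (0.051, 0.0785, 0.0923, 0.0687 and 0.0609).

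**Figure D1:**
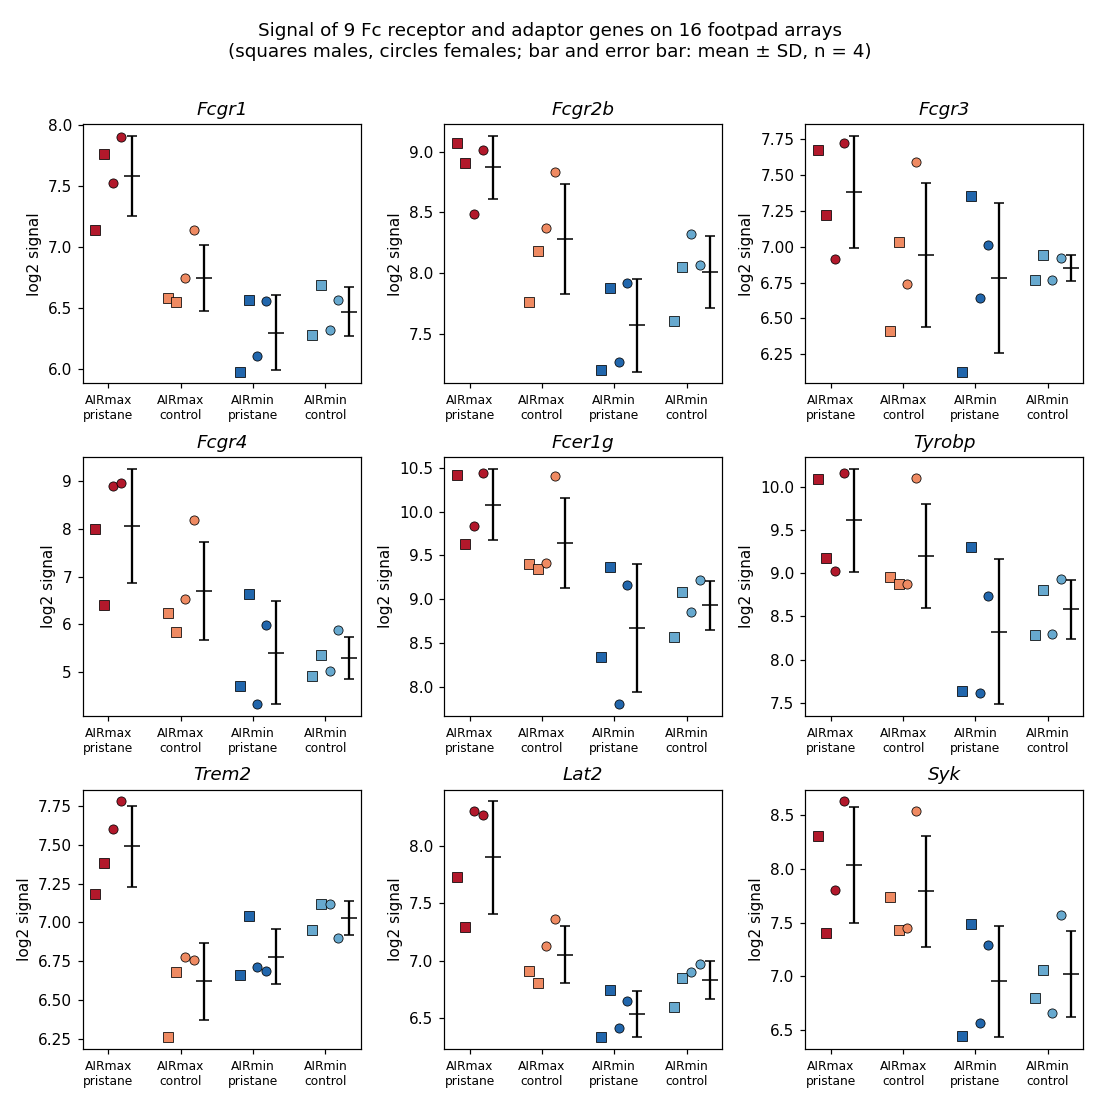
Log2 signal (vertical axis) of each of the 9 genes on 16 footpad arrays, by group (horizontal axis). Males are drawn as squares and females as circles, and the bar with its error bar is the mean ± SD of 4 arrays. AIRmax pristane footpads have the highest mean in every panel, and only in the Trem2 panel is the AIRmax control mean the lowest, at 6.62.

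Trem2, a lipid-binding receptor of macrophages, microglia and osteoclasts that signals through Tyrobp, was the only one of the 9 genes to pass the test of a difference in response between the lines. AIRmax footpads gave 7.18, 7.38, 7.60 and 7.78 with pristane, against 6.26, 6.68, 6.78 and 6.76 in controls. AIRmin footpads gave 6.66, 7.04, 6.71 and 6.69 with pristane, against 6.95, 7.12, 7.12 and 6.90 in controls. All 4 AIRmax pristane arrays were above the other 12 arrays, and all 4 AIRmax control arrays were below all 4 AIRmin control arrays. The pristane minus control difference was 0.87 in AIRmax (95% interval 0.50 to 1.24, adjusted p = 0.078) and -0.25 in AIRmin (unadjusted p = 0.0484, adjusted p = 0.399), neither of which passed on its own 8 arrays. The difference between these responses was 1.11 (95% interval 0.69 to 1.54, adjusted p = 0.0345 from limma on 16 arrays), where 0.171% of all genes were called, each of them with the more positive response in AIRmax. The Trem2 interaction ranked 30 of 19938 genes by p. Its adjusted p exceeded 0.05, between 0.0548 and 0.0972, when any of arrays 105, 106, 111 to 117, 119 or 120 was left out, with differences of 0.99 to 1.16. In control footpads alone the AIRmax minus AIRmin difference of Trem2 was -0.41 (95% interval -0.69 to -0.12, adjusted p = 0.215), which did not pass.

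The interaction was positive for all 9 genes, with a median of 0.99 against 0.01 over all genes. After Trem2 it was 1.14 for Lat2 (95% interval 0.55 to 1.74, adjusted p = 0.139), 0.99 for Fcgr1 (0.43 to 1.55, adjusted p = 0.186) and 1.03 for Fcgr2b (0.34 to 1.72, adjusted p = 0.331). With Trem2, these were the 4 genes with an unadjusted p under 0.05, where 5.39% of all genes did so with a positive sign. For Syk the difference of responses was 0.33 (-0.63 to 1.28), and for Fcgr4 1.25 with an interval of -0.61 to 3.11, too wide to set it apart from 0. Without array 110 the interaction of Lat2 also passed, at 1.35 (adjusted p = 0.0307). Markers of other cell types moved with it. All 15 macrophage and monocyte markers had a positive interaction (median 0.93, 3 called), as did all 7 fibroblast markers (median 1.29, 1 called), and all 15 skeletal muscle markers a negative one (median -1.12, none called, 10 with an unadjusted p under 0.05). Their part in the interaction of the 9 genes was not tested. The interaction shares its arrays with every other comparison given here.

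Within AIRmax, none of the 9 genes passed for pristane against control footpads, where limma called 0.281% of all genes. All 9 differences were positive, with a median of 0.59 against 0.03 over all genes, and 4 genes had an unadjusted p under 0.05 (7.54% of all genes did so with higher signal). These were Trem2, Lat2 with 0.85 (95% interval 0.32 to 1.38, adjusted p = 0.169), Fcgr1 with 0.82 (0.39 to 1.26, adjusted p = 0.119) and Fcgr2b with 0.59 (0.08 to 1.09, adjusted p = 0.285). Trem2 alone was without overlap, where 5.09% of all genes were higher without overlap. For the other 5 genes the intervals reached below 0. Fcgr4 had 1.37 (-0.10 to 2.84), Fcgr3 0.44 (-0.17 to 1.05), Fcer1g 0.44 (-0.19 to 1.07), Tyrobp 0.41 (-0.39 to 1.22) and Syk 0.25 (-0.46 to 0.96). SAM, which the study used, called Fcgr1, Lat2 and Trem2 higher here, where it called 0.963% of all genes higher and 754 genes in either direction.

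Within AIRmin, none passed either, and limma called 0.0% of all genes (12.4% had an unadjusted p under 0.05, and SAM called 416 genes, none of the 9). The differences of 8 of the 9 genes were negative, with a median of -0.25 against 0.02 over all genes. Lat2 had -0.29 (95% interval -0.57 to -0.01, unadjusted p = 0.0413), Fcgr2b -0.44 (-0.90 to 0.01) and Fcgr1 -0.16 (-0.52 to 0.20). Lat2 and Trem2 were the only 2 genes with an unadjusted p under 0.05, where 7.27% of all genes did so with lower signal. Fcgr4 had 0.12 (-0.92 to 1.16).

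Between the control footpads of the lines none of the 9 genes passed, where limma called 0.0802% of all genes, and 8 of 9 were on the AIRmax side (median 0.29, against -0.03 over all genes). Those with an unadjusted p under 0.05 were Fcgr4 with 1.41 (95% interval 0.39 to 2.42, adjusted p = 0.217), Syk with 0.76 (0.16 to 1.37), Fcer1g with 0.71 and, on the AIRmin side, Trem2 (8.38% of all genes were higher and 8.4% lower by this rule). Of these, Fcer1g and Trem2 were without overlap, in opposite directions, where 5.39% of all genes were higher and 4.94% lower without overlap. The activating receptor gene Fcgr1 and the inhibitory Fcgr2b differed by 0.29 (-0.05 to 0.62) and 0.27 (-0.23 to 0.78).

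**Figure D2:**
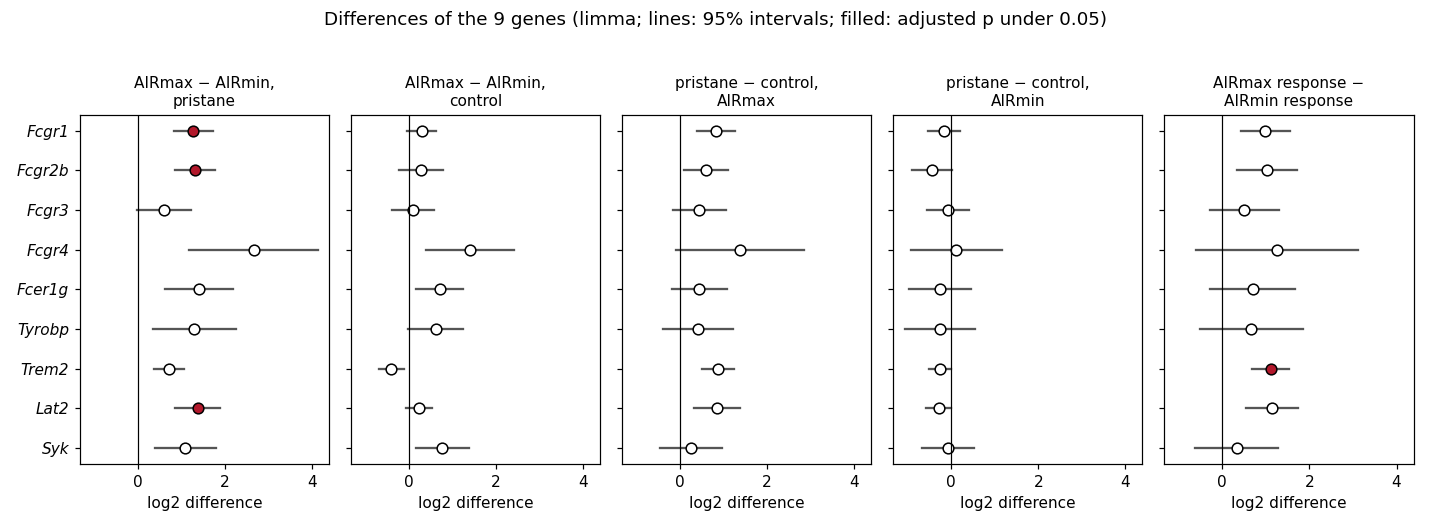
Log2 difference (horizontal axis) of each gene (vertical axis) in 5 comparisons, one a panel. Points are limma estimates, lines 95% intervals, and filled points have an adjusted p under 0.05: Fcgr1, Fcgr2b and Lat2 between pristane footpads of the lines and Trem2 for the difference of responses.

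Macrophages and monocytes carry most of these receptors. Of 15 macrophage and monocyte markers, 5 were called higher in AIRmax than in AIRmin pristane footpads and 14 had a positive difference (median 0.99), while between control footpads none was called and the median was -0.01. Within AIRmin all 15 were lower with pristane (median -0.58, 0 called). Of these, 11 had an unadjusted p under 0.05, where 7.27% of all genes did so with lower signal. Within AIRmax 10 of the 15 were higher with pristane and 5 lower (median 0.46, 2 called, both higher). The macrophage score, the mean log2 deviation of the markers from their means over 16 arrays, was 0.29 to 0.79 in AIRmax pristane, -0.05 to 0.26 in AIRmax control, -0.92 to -0.22 in AIRmin pristane and -0.23 to 0.13 in AIRmin control footpads. None of the macrophage markers had all 4 group means at or below 4.32, the highest signal of Xist in males. The markers with the highest signal were Lyz2 (lysozyme) and the complement genes C1qa and C1qc, with differences of 0.99, 0.96 and 0.82 between pristane footpads, none of which passed. The part of macrophage number in the values of the 9 genes was not tested.

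Neutrophil and granulocyte precursor markers varied more within the groups. Their score was 1.93, 0.10, -0.38 and 1.83 in AIRmax pristane, 0.43, 0.22, 0.34 and 1.87 in AIRmax control, -1.27, 1.22, -2.16 and 0.37 in AIRmin pristane, and -1.45, -0.60, -2.66 and 0.22 in AIRmin control footpads. None of the 12 markers passed between pristane footpads, although all 12 had a positive difference (median 1.35), and 11 of 12 were on the AIRmax side with an unadjusted p under 0.05 between control footpads. Arrays 109, 112, 108 and 118, the highest by this score, are also the highest for Tyrobp within their groups (109 and 112 are the upper pair of theirs). Array 108 was the highest of its group for every gene but Trem2, and array 118 for every gene but Fcgr2b. Over the 16 arrays, as deviations from group means, the score correlated with Tyrobp at r = 0.93, Syk 0.89, Fcer1g 0.88, Fcgr3 0.74 and Fcgr4 0.68, and with Fcgr2b at 0.57, Fcgr1 0.53, Lat2 0.37 and Trem2 0.13. These are descriptions over arrays that share 1 tissue and 1 normalization. The correlation with the macrophage score lay between 0.54 for Lat2 and 0.80 for Fcgr1. With a score of skeletal muscle markers it was -0.76 for Lat2 and -0.71 for Fcgr4, farther from 0 than with either other score. For the other genes it lay between -0.52 for Syk and -0.07 for Fcgr2b. The 3 genes nearest to the granulocyte score were Tyrobp, Syk and Fcer1g.

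**Figure D3:**
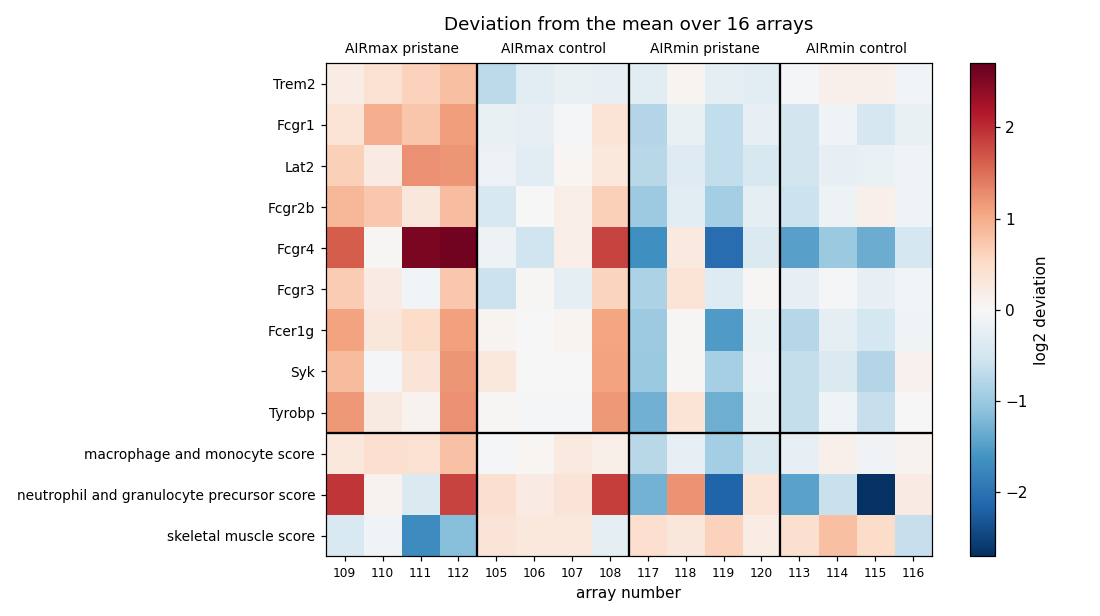
Deviation of the 9 genes and of 3 marker scores from their means over 16 arrays (colour, log2 scale), with 1 column an array by its number and black lines between groups. Array 108 has the highest value of the AIRmax control columns in every gene row but Trem2. Array 118 has the highest value of the AIRmin pristane columns in every gene row but Fcgr2b. Both are also the highest of their groups in the neutrophil row (1.87 and 1.22). The Trem2 row has its highest values in all 4 AIRmax pristane columns.

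**Figure D4:**
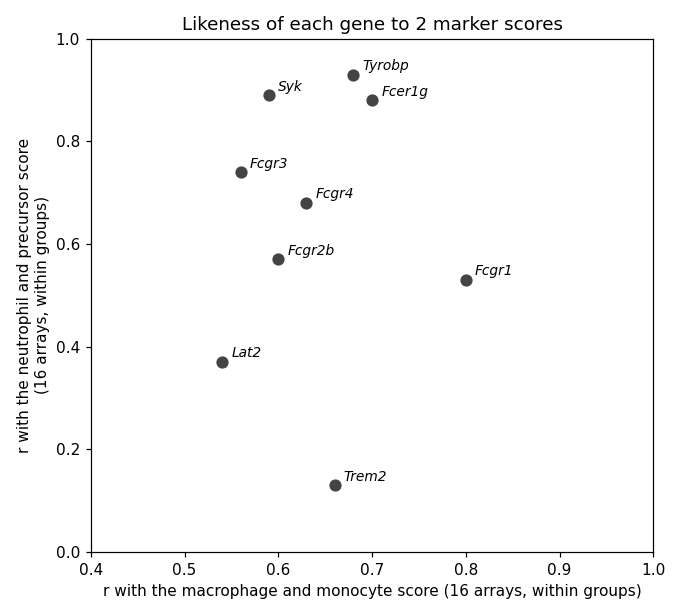
Pearson correlation of each gene with the macrophage and monocyte score (horizontal axis) and with the neutrophil and granulocyte precursor score (vertical axis), over 16 arrays as deviations from group means. Tyrobp lies at 0.68 and 0.93, and Trem2 at 0.66 and 0.13.

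The neutrophil score was added to the fit as an alternative chosen after the data had been seen. Fcgr1, Fcgr2b and Lat2 still passed between pristane footpads (differences of 1.15, 1.02 and 1.25). Fcer1g passed as well at 0.86 (adjusted p = 0.0273), where 142 of 19938 genes were called higher. Trem2 also kept its interaction, at 1.13 (adjusted p = 0.023), where 134 genes were called, against 34 without the score. The skeletal muscle score was -1.70 to -0.09 in AIRmax pristane, -0.26 to 0.34 in AIRmax control, 0.20 to 0.63 in AIRmin pristane and -0.62 to 0.82 in AIRmin control footpads, with Acta1, Atp2a1 and Mb the brightest of its 15 markers. When that score was added instead, again after the data had been seen, none of the 9 genes passed, and the line differences in pristane footpads were 1.10 for Fcgr1, 1.45 for Fcgr2b and 0.57 for Lat2. This score did not overlap between the pristane footpads of the lines, so the fit also removes line differences, and 2 of all 19938 genes passed in it.

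Set against the mean of the 15 macrophage markers on the same array, the line difference in pristane footpads was 0.22 for Fcgr1, 0.24 for Fcgr2b and 0.31 for Lat2, each with overlap of the arrays. It was 1.60 for Fcgr4, 0.36 for Fcer1g, 0.23 for Tyrobp and 0.03 for Syk, and it lay on the AIRmin side for Trem2 (-0.35) and Fcgr3 (-0.46), all with overlap. By this ratio Trem2 was higher in pristane than in control footpads by 0.48 in AIRmax, without overlap, and by 0.30 in AIRmin, with overlap. The difference of its responses was then 0.19, beside 1.11 without the ratio, and over the 9 genes this difference ran from -0.60 for Syk to 0.32 for Fcgr4. Between AIRmax control and AIRmin control footpads the ratio of Trem2 differed by -0.53, without overlap. Fcer1g was higher by 0.58 without overlap in AIRmax control than in AIRmin control footpads, as was Fcgr1 by 0.38 in AIRmin pristane against AIRmin control footpads. These ratios were not tested.

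The other 8 marker lists gave these counts between pristane footpads. Osteoclast markers were higher in AIRmax for 3 of 7 genes, Ctsk (cathepsin K) at 1.89 (adjusted p = 0.0491), Dcstamp at 1.14 (adjusted p = 0.0487) and Atp6v0d2 at 2.31 (adjusted p = 0.0331). Acp5 had 1.66 (adjusted p = 0.0709), and Calcr, the calcitonin receptor, stayed at or below 4.32 in all 4 group means. Fibroblast markers were higher for 3 of 7. Of 9 mast cell genes 1 was called lower in AIRmax, Tpsab1 at -2.37 (adjusted p = 0.0023). Tpsab1 was called lower in AIRmax between control footpads too (-2.79, adjusted p = 0.00476). Of 15 skeletal muscle genes 1 was called lower as well, but all 15 had a negative difference with an unadjusted p under 0.05 (median -1.23), and 12 were lower without overlap, where 5.81% of all genes were. None of 7 B cell, 10 T and NK cell, 8 adipocyte or 7 keratinocyte genes passed. Of the T and NK markers Klrb1c, Gzma and Eomes, and of the mast cell markers Mrgprb2, had all 4 means at or below 4.32. No keratinocyte, skeletal muscle or fibroblast marker had all 4 means that low.

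Among the 9 genes, the 36 pairs correlated with a median r of 0.79 over 16 arrays (0.35 to 0.97) and 0.59 as deviations from group means (0.23 to 0.95). The gene outside the 9 most like each was found by Pearson r over 16 arrays. It was Plod3 for Fcgr1 (0.954), Lhfpl2 for Fcgr2b (0.935), Aff2 for Fcgr3 (0.951), Pik3ap1 for Fcgr4 (0.964), Nckap1l for Fcer1g (0.987), Cd53 for Tyrobp (0.986), Tgfbi for Trem2 (0.932), Clec4a1 for Lat2 (0.959) and Stap1 for Syk (0.985). The mean of the 9 standardized genes was most like Emilin2 (0.983), Cyth4 (0.978), Inhba, Tbc1d2b and Xdh (0.964 each).

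A list of other receptors, most of which signal through Fcer1g or Tyrobp, had 5 of 18 genes called higher in AIRmax than in AIRmin pristane footpads. None was called lower, and the median difference was 1.21. The list also holds Clec7a (Dectin-1), which carries an activation motif of its own. Clec7a was not called (1.30, adjusted p = 0.072) but counts in the medians and in the control counts that follow. Between control footpads 17 of the 18 had a positive difference (median 0.87). There 12 had an unadjusted p under 0.05 with higher signal in AIRmax, where 8.38% of all genes did. Clec4d, which encodes the C-type lectin MCL, ranged from 7.77 to 8.91 in AIRmax pristane, 5.14 to 6.36 in AIRmax control, 4.11 to 6.29 in AIRmin pristane and 4.49 to 5.15 in AIRmin control footpads. It passed both between the lines (3.03, adjusted p = 0.0203) and within AIRmax (2.43, adjusted p = 0.0264). Cd300ld, an activating receptor of the CD300 family, was higher in AIRmax with pristane, at 7.43 ± 0.46 against 4.76 ± 0.33 in AIRmin (2.66, adjusted p = 0.00309). It was also higher in AIRmax controls, at 6.29 ± 0.42 against 4.75 ± 0.09 in AIRmin controls (1.54, adjusted p = 0.0186), the only call of the pathway lists there. The other 3 were Clec4n (Dectin-2), with a difference of 2.60, Cd300c2, with 1.78 (adjusted p = 0.0347), and Cd200r4, with 1.03 (adjusted p = 0.0331) but all group means between 2.69 and 3.77, below the highest male Xist signal. Clec4n was the 1 of 18 called in the interaction (2.02, adjusted p = 0.0434). Within AIRmax, Siglech, a receptor of plasmacytoid dendritic cells, was lower with pristane, at 4.53 ± 0.12 against 5.37 ± 0.14 in controls (-0.84, adjusted p = 0.0241).

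Inhibitory receptors and phosphatases had 1 of 26 genes called, Cd200r1 with 1.37 (adjusted p = 0.048) and an AIRmin pristane mean of 3.90, below the highest male Xist signal, and a median difference of 1.0 between pristane footpads. Kinases and effectors around Syk had 1 of 26, Pik3ap1 (BCAP), at 8.54 ± 0.50 in AIRmax and 6.97 ± 0.42 in AIRmin after pristane (1.57, adjusted p = 0.0358), with a median of 0.41. None of 12 other ITAM or activating adaptors passed (median 0.29), and none of 13 other Fc receptors (median 0.04). Between control footpads no gene of these lists was called, but the inhibitory list had a median of 0.54 and the kinase list 0.37. Of these, 15 of 26 and 14 of 26 genes had an unadjusted p under 0.05 with higher signal in AIRmax, where 8.38% of all genes did. The control medians were 0.35 for the adaptors and 0.1 for the other Fc receptors. The other Fc receptors held 2 lower calls within AIRmax, both of B cells. Fcer2a (CD23) was at 3.92 ± 0.30 with pristane, against 5.46 ± 0.30 in controls (-1.54, adjusted p = 0.0215), and Fcmr differed by -1.72 (adjusted p = 0.019). All 4 AIRmax pristane arrays were below 4.32 for Fcer2a, so the size of its difference is not well measured. Within AIRmin both were also lower with pristane without overlap, Fcer2a by a difference of -1.18 and Fcmr of -0.82, and neither passed (adjusted p = 0.0513 each). The AIRmin pristane arrays of Fcer2a lay at 3.92 to 4.18, also below 4.32, so the size of that difference is not well measured either. The B cell score was -0.87 to -0.01 in AIRmax pristane and 0.22 to 1.09 in AIRmax control footpads, all 7 B cell markers had negative differences in both lines, and its part in these differences was not tested.

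**Figure D5:**
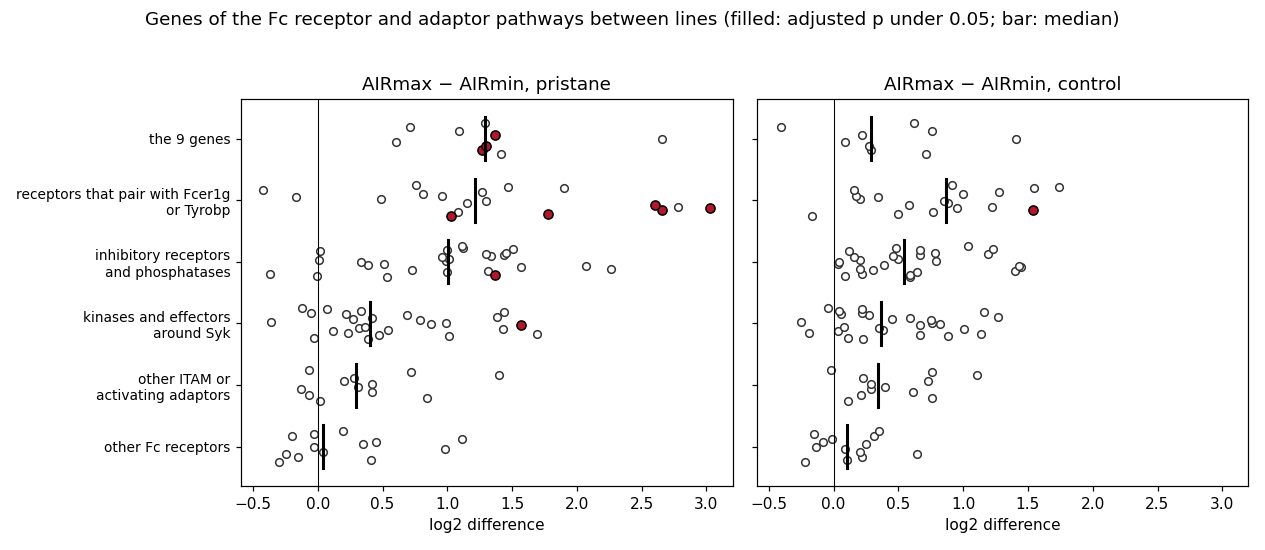
Log2 difference between AIRmax and AIRmin (horizontal axis) in pristane (left) and control (right) footpads for the 9 genes and 5 lists of related genes (vertical axis). Each point is a gene, filled at an adjusted p under 0.05, and bars are list medians, which for pristane footpads run from 1.29 for the 9 genes to 0.04 for the other Fc receptors.

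None of the 9 genes passed between females and males, where limma called 0.105% of all genes. Lat2 had the smallest unadjusted p, with females higher by 0.35 (95% interval 0.11 to 0.59, unadjusted p = 0.00728, adjusted p = 0.631). In AIRmax pristane footpads Lat2 averaged 8.29 in the 2 females and 7.51 in the 2 males, and in AIRmin pristane footpads 6.53 in females and 6.54 in males. Fcgr4 had the largest difference, with females higher by 0.71 (95% interval -0.16 to 1.59, unadjusted p = 0.103 from limma). Its AIRmax pristane means were 8.94 in females and 7.2 in males, and its AIRmin pristane means 5.15 and 5.68.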

How the data were processed

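Footpad RNA was hybridized to 16 Affymetrix Mouse Gene 1.0 ST arrays. The authors normalized the arrays and deposited log2 signals per probe set. Array titles name gene-level RMA and the submitters' notes name MAS5, with versions not given in the sources used here. The values were used as deposited, with array medians of 5.435 to 5.53. Of 35556 probe sets, 21789 named 1 gene, 1621 several and 12146 none. The brightest probe set stood for each of 19938 genes.

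Pairs of groups were compared on their 8 arrays, and the interaction and sex on 16, with limma 3.58.1 (lmFit, eBayes) in R 4.3.3. P-values were adjusted over all genes by the Benjamini-Hochberg method, with a threshold of 0.05. The fits were tested on simulated data. Labelled sex matched Xist and Y-linked genes on all 16 arrays. The highest signal of Xist in males, 4.32, served as a background level. In females Kdm5d gave 2.67 to 3.34, Eif2s3y 2.04 to 2.48 and Uty 2.13 to 2.79. Background thus differs between probe sets, and 4.32 is a guide and not a limit for each. The number of arrays limits the precision.

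The genes, the 5 pathway lists and the 10 marker lists were chosen with earlier results of these data known. Named were the 9 genes, called pathway genes (at most 6 a list), the 3 brightest genes of a marker list, and the genes most like each of the 9. Genes named outside this rule, such as Calcr, were chosen after their values were seen. Alternatives were 1 fit of 16 arrays, sex as a covariate, mean or all probe sets, dim genes left out, standardized or quantile-normalized arrays, a trended robust prior, a 2-fold minimum, each array left out and SAM, written anew. Covariates of neutrophil and muscle scores were added after seeing the data. Python 3.11.15 made tables and figures.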

Additional observations from a re-analysis of the deposited data

Results flagged for a closer look

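Of 36 sets of 4 arrays, 1 for each gene and group, 3 held an array set far from the other 3 by Dixon's test at the 95% level, where chance flags about 1 in 20. In AIRmax control footpads array 108 had a log2 signal of 10.40 for Fcer1g and 10.10 for Tyrobp, against at most 9.41 and 8.95 on the other 3 arrays. The neutrophil score of that array was 1.87, against 0.22 to 0.43 on the other 3, and its part in these values was not tested. In AIRmin pristane footpads array 118 had 7.04 for Trem2, against 6.66 to 6.71.

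The response of Trem2 to pristane differed between the lines by 1.11 on the log2 scale, by a test of the difference itself (adjusted p = 0.0345 from limma on 16 arrays). It was higher on 4 of 4 AIRmax pristane arrays than on every AIRmax control array.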

How the results depend on the processing

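The number of the 9 genes called between pristane footpads of the lines was 3. It was 7 with all 16 arrays in 1 fit (all but Fcgr3 and Tyrobp), where 761 of 19938 genes were called higher. It was 4 by SAM, with Trem2 added, where 521 genes were called higher. With the neutrophil score it was 4, with Fcer1g added, where 142 genes were called higher. It was 0 with all probe sets tested, 0 when the muscle score was added to the fit and 0 to 4 when 1 array was left out. Leaving out 112, 117, 119 or 120 gave 0, 111 gave 1, and 110 or 118 gave 4. For the difference of responses it was 1, with 0 for all probe sets, 0 for the muscle score and 0 to 2 when 1 array was left out. Within AIRmax it was 0, against 3 with all 16 arrays in 1 fit, where 149 of all genes were called higher. There it was 2 with sex as a covariate (47 of all genes higher), 3 by SAM (192) and 1 with the neutrophil score (152). It stayed 0 within AIRmin, between controls and between the sexes under every alternative run. The cause of these changes was not tested, except that testing all 35556 probe sets adjusts over more tests.

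Of 180 values of single genes between pristane footpads under these alternatives none turned its direction. With the muscle score Fcgr4 (-0.34) and Syk (-0.16) turned within AIRmax, as did their differences of responses (-0.28 and -0.24). With the neutrophil score Fcgr4 turned within AIRmin (-0.24), and Fcgr1 (-0.04), Fcgr3 (-0.26) and Tyrobp (-0.11) turned between controls. Leaving out 1 array gave -0.26 to 0.15 for Fcgr3, -0.29 to 0.48 for Fcgr4, -0.50 to 0.03 for Fcer1g and -0.26 to 0.11 for Syk within AIRmin, and -0.12 to 0.27 for Fcgr3 between controls.

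Over all genes, the calls within AIRmax were 56, against 338 with 1 fit of 16 arrays, 109 with sex, 15 with all probe sets, 22 with dim genes left out, 754 by SAM, 370 with the neutrophil score and 1 with the muscle score. In the same order, within AIRmin they were 0, against 11, 2, 0, 44, 416, 691 and 0, and 33 with a trended robust prior and 4 with quantile normalization. Between pristane footpads they were 271, against 1519, 173, 100, 205, 1016, 258 and 2, and 157 with a 2-fold minimum. Between controls they were 16, against 35, 31, 51, 7, 280, 5 and 19, and 27 with quantile normalization. For the difference of responses they were 34, against 134 with the neutrophil score, 8 with the muscle score and 61 with standardized arrays. Between the sexes they were 21, against 11 with all probe sets, 9 with dim genes left out, 8 with a 2-fold minimum, 84 with the neutrophil score and 6 with the muscle score. No depth is counted on arrays, and 4 arrays a group limit what can be seen.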
